A study of Mus musculus with 12 samples.

Results

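Control mouse oocytes were compared before and after the start of growth. Growing oocytes from ovaries at postnatal day 7 were set against non-growing oocytes from ovaries at postnatal day 6, and the members are the genes and gene models that reached 1 TPM in at least 2 of these 4 RNA-seq libraries, 13218 of the 55385 models in the table. The 4 libraries, 2 per stage, are part of a series of 12 libraries in 6 groups. All 4 carry the genotype Eed F/+; Ddx4-Cre, so the controls themselves hold 1 floxed and 1 wild-type allele of Eed, a core gene of Polycomb repressive complex 2 (PRC2), and a Cre recombinase driven by the germ cell gene Ddx4. The oocytes with Eed deleted (Eed F/-; Ddx4-Cre, cKO), at the same stages, are described only where the growth change is compared. Their libraries also entered the fit and the trimmed-mean scaling, and so bear on the spread and the calls given for the controls. Stage and postnatal day changed together in this design and cannot be told apart. The labels do not say whether the libraries of a stage came from separate animals, so p-values measure only the spread between these libraries.

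In the neonatal ovary most oocytes rest in primordial follicles, arrested in meiotic prophase, and only a few at a time start to grow. Growth is the phase in which the oocyte enlarges many times, lays down the zona pellucida, secretes factors of the TGF-beta family to the granulosa cells around it, and stores the mRNA and protein that the embryo will use before its own genome is active. Genes that built the synaptonemal complex during prophase are no longer needed by then.

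The values are TPM, transcript abundances corrected for length and scaled to the same sum in every library, so sequencing depth is unknown and levels of different genes can be set side by side. Folds are given as log2 fold changes of TPM + 1, growing minus non-growing, on the TPM as deposited and again after trimmed-mean scaling, which places the bulk of genes near 0. The median over all tested genes was -0.72 as deposited and -0.04 after trimmed-mean scaling. A gene is called here, and said to rise or fall, only where limma gave an adjusted p of at most 0.05 in the same direction on both scales. By this rule 2257 genes rose, 17.1% of those tested, and 3885 fell, 29.4%. With a change of at least 4-fold on both scales, 777 rose (5.88%) and 278 fell (2.1%). The split depended on the scale. On the deposited values alone 17.1% of genes were called higher and 57.1% lower, after trimmed-mean scaling alone 30.4% and 29.4%, and rises made up 23.02%, 50.87% and 36.75% of the calls on the first scale, on the second and under the joint rule. The libraries of a stage lay close together, with a median absolute log2 difference of 0.11 between the non-growing and 0.16 between the growing libraries, against a median absolute change of 0.68 after trimmed-mean scaling. Of the 2257 genes that rose, 791 were under 1 TPM in both non-growing libraries, and 896 of the 3885 that fell were under 1 TPM in both growing libraries. Those genes passed the filter only through the stage where they were high, so their direction was fixed by the filter.

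**Figure D1:**
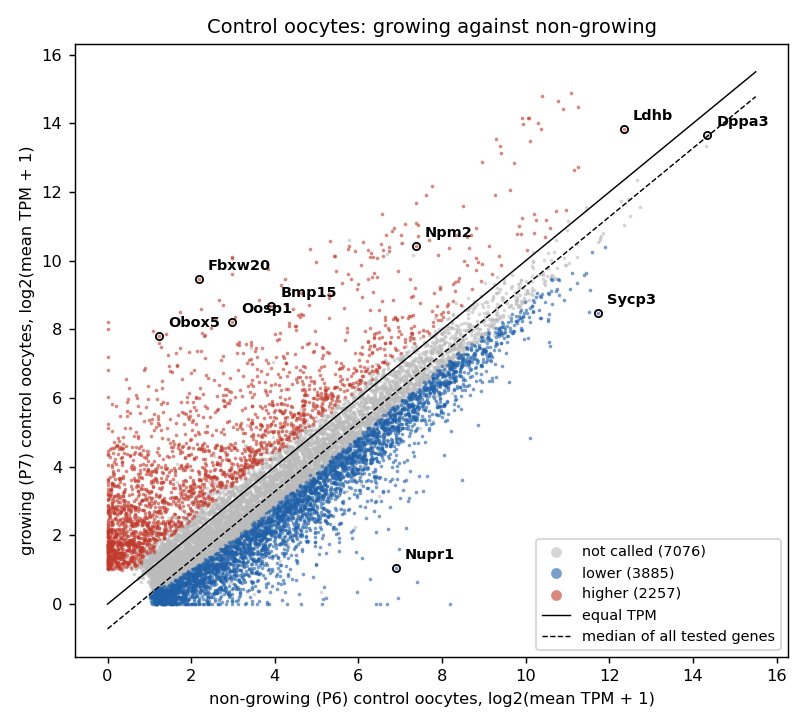
Level of each of the 13218 tested genes in growing oocytes (vertical) against non-growing oocytes (horizontal), as log2 of the mean TPM of 2 libraries plus 1. Red points rose (2257), blue points fell (3885) and grey points were not called (7076). The solid line marks equal TPM and the dashed line the median of all tested genes, -0.72; Bmp15, Oosp1, Npm2, Obox5 and Fbxw20 lie far above it and Sycp3 and Nupr1 far below.

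The labels of the stages were checked against oocyte markers. Bmp15, which encodes a growth factor that oocytes secrete, was at 13.9 and 14.3 TPM in non-growing oocytes and reached 362.5 and 459.8 TPM with growth. Its log2 fold change was 4.76 as deposited (SE 0.19, limma adjusted p = 4.19e-06) and 5.54 after trimmed-mean scaling. Oosp1, an oocyte-secreted protein gene, was at 6.33 and 7.37 TPM and then at 261.9 and 333.2 TPM, a change of 5.24 (SE 0.15, limma adjusted p = 1.43e-06) and 6.0. Every growing library was far above every non-growing library for both genes. Without regard to size, such an order was seen for 22.4% of all tested genes. Npm2, which encodes the nucleoplasmin that remodels sperm chromatin after fertilization, was at 172.2 and 158.3 TPM and then at 1327 and 1404 TPM, a change of 3.04 (SE 0.11, limma adjusted p = 3.10e-06) and 3.86. Sycp3, a lateral element protein of the synaptonemal complex, went the other way, from 3392 and 3364 TPM to 361.7 and 343.9 TPM, a change of -3.26 (SE 0.09, limma adjusted p = 1.18e-06) and -2.44. The germ cell genes Ddx4 (177.2 and 179.9 TPM, then 140.2 and 142.9 TPM) and Dazl (290.7 and 298.5 TPM, then 255.8 and 274.4 TPM) were present at both stages and were not called. Eed itself was at 88.9 and 90.5 TPM and then at 62.3 and 60.5 TPM, and was not called, with changes of -0.54 as deposited and 0.27 after trimmed-mean scaling.

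**Figure D2:**
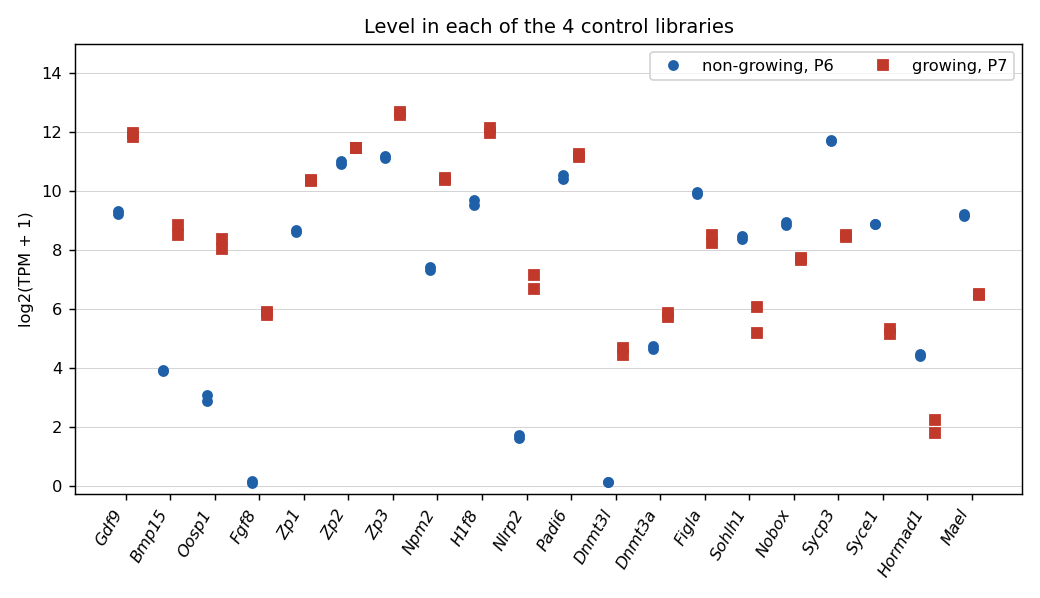
Level of 20 named genes as log2(TPM + 1) in each of the 4 control libraries, with circles for the 2 non-growing (P6) and squares for the 2 growing (P7) libraries. The squares lie above the circles for the secreted, zona and maternal genes on the left and below them for the transcription factor and meiotic genes on the right, from Figla to Mael.

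The genes for factors that the oocyte secretes rose almost as a set. Of 10 tested members 9 were called higher and none lower, against 17.1% and 29.4% of all tested genes. The median member changed by 4.01 as deposited and 4.81 after trimmed-mean scaling. Gdf9, the partner of Bmp15 in signalling to granulosa cells, was already at 595.9 and 636.7 TPM before growth and reached 3706 and 4019 TPM, a change of 2.65 (SE 0.13, limma adjusted p = 6.94e-06) and 3.46. Its level was above that of Bmp15 in all 4 libraries. Fgf8, which acts on cumulus cell glycolysis together with Bmp15, was at 0.05 and 0.12 TPM in non-growing and 53.8 and 58.3 TPM in growing oocytes. It thus passed the filter only through the growing libraries. Bmp6 (0.89 and 0.75 TPM, then 8.82 and 9.51 TPM) passed in the same way. Oosp2 moved from 20.5 and 20.9 to 366.2 and 408.8 TPM and Oosp3 from 3.93 and 2.86 to 148.0 and 182.4 TPM. These neighbours of Oosp1 in name and product rose by 4.16 and 5.24 as deposited. Tgfb2 went from 18.7 and 19.6 to 287.3 and 295.0 TPM, and Rspo2, a WNT pathway enhancer, from 30.5 and 34.4 to 109.4 and 113.8 TPM, the smallest called rise of the set at 1.75 as deposited. Igf2bp3, an RNA-binding protein gene kept in this list, was at 32.8 and 34.7 TPM and 27.5 and 27.7 TPM and was not called. The count was 9 in every fit that left out 1 of the 8 libraries.

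Genes for contact with the surrounding somatic cells are set against the 17.1% of all tested genes that rose and the 29.4% that fell. Of 7 tested 3 rose and none fell, but only 1 rise was left without any single control library, and 1 fall was added without either growing cKO library. The rise that was kept was that of Cdh2, the N-cadherin gene, from 1.04 and 1.02 to 3.46 and 6.11 TPM, while Gja4, the connexin of the oocyte side of the gap junctions, was at 83.8 and 96.5 TPM and then 90.6 and 88.6 TPM and was not called.

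Of 9 tested genes of the zona pellucida and of sperm binding 5 rose, 1 fell and 3 were not called, with a median change of 0.46 as deposited and 1.28 after trimmed-mean scaling. Over all tested genes 17.1% rose and 29.4% fell. The 3 zona proteins differed in how much they moved. Zp1, which cross-links the filaments, went from 388.2 and 406.5 to 1288 and 1346 TPM, a change of 1.73 (SE 0.29, limma adjusted p = 0.00122) and 2.54. Zp2, the protein that sperm bind, went from 1936 and 2072 to 2819 and 2846 TPM, a change of 0.50 (SE 0.12, limma adjusted p = 0.00663) and 1.32. Zp3, the partner of Zp2 in the filaments, went from 2256 and 2316 to 6643 and 6174 TPM, a change of 1.49 (SE 0.11, limma adjusted p = 2.84e-05) and 2.31. All growing libraries were above all non-growing libraries for each of them, which was so for 22.4% of all tested genes. Astl encodes ovastacin, the protease that cleaves ZP2 after fertilization. It went from 75.5 and 84.2 to 520.1 and 567.9 TPM. Cd9, the egg membrane tetraspanin required for sperm fusion, went from 485.9 and 487.7 to 665.7 and 678.9 TPM, and its relative Cd81 fell from 110.3 and 121.0 to 18.9 and 15.8 TPM, a change of -2.67 (SE 0.20, limma adjusted p = 3.33e-05) and -1.88.

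Sequences before the start of genes of both directions are shown because basic helix-loop-helix factors such as FIGLA, which drives zona genes in oocytes, bind short words called E-boxes. The windows are the 250 bases before the RefSeq start on GRCm38.p6, which can differ from the start in the gene annotation. The annotated start is 15750131 for Obox5 and 11691150 for Oosp1. Most of the Obox5 window, with both of its E-boxes, and part of the Oosp1 window thus lie inside the annotated gene. Each window is written 5′ to 3′ on the strand of its gene, with every E-box (CANNTG) in capitals.
Zp3, chr5:135979855-135980104, plus strand: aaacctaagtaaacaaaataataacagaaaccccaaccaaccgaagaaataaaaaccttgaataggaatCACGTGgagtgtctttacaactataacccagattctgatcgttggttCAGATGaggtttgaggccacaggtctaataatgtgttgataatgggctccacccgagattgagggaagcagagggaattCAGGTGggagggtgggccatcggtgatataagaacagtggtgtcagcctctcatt
Bmp15, chrX:6320725-6320974, minus strand: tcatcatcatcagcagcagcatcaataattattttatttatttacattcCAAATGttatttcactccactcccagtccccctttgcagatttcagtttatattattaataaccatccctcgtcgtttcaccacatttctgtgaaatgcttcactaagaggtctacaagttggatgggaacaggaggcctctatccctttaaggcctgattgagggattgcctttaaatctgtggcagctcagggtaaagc
Oosp1, chr19:11691052-11691301, minus strand: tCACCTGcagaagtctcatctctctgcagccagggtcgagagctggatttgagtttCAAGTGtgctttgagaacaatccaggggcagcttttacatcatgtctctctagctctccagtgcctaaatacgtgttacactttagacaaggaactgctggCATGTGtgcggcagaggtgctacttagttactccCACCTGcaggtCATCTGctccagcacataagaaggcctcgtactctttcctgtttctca
Obox5, chr7:15750120-15750369, plus strand: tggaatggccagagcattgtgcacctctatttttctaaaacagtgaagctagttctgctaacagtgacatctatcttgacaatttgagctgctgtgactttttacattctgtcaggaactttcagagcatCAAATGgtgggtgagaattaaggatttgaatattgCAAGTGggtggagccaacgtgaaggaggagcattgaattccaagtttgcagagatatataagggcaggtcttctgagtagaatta
Sycp3, chr10:88459337-88459586, plus strand: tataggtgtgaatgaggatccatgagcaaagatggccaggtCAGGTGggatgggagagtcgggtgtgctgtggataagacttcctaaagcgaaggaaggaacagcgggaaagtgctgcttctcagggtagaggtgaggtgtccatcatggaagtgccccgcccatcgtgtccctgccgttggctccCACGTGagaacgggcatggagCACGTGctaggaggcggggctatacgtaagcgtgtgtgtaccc
Syce1, chr7:140787855-140788104, minus strand: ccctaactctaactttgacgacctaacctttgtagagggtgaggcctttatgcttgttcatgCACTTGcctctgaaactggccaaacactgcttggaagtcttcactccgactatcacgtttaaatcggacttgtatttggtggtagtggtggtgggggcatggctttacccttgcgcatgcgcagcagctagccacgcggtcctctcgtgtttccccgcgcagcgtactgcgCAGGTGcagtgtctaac
Zp3, Bmp15, Oosp1 and Obox5 rose and Sycp3 and Syce1 fell, and all 6 windows hold at least 1 E-box, from 1 in Bmp15 to 5 in Oosp1. Such a match is common. CANNTG, which reads the same on both strands as a pattern and includes CACGTG, was found in 57.2% of the windows of 8892 tested protein-coding genes that matched a RefSeq entry, out of 11076. The share was 70.7% of the 368 windows of genes that rose at least 4-fold and 70.1% of the 164 that fell at least 4-fold. The median number of CpG dinucleotides was 16 over all genes, 12 over those that rose and 15 over those that fell. It was 6 over genes that rose at least 4-fold and 10 over those that fell at least 4-fold. The 4 risen genes shown hold 5, 2, 4 and 1 CpG in the order printed, and Sycp3 and Syce1 hold 12 and 13.

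The tested members of the lists of Nlrp4, Nlrp9 and Nlrp14 genes and of Obox genes were called higher, against 17.1% of all tested genes. Nlrp5, of the same NLRP family, was not called. NLRP proteins with names of the Nlrp4, Nlrp9 and Nlrp14 type are products of a gene family expanded in rodents and expressed mainly in oocytes, and 10 of 10 tested were called higher, 8 to 10 with 1 library left out. Nlrp14 started high, at 974.6 and 940.3 TPM, and reached 2219 and 2645 TPM. Nlrp9a (2.62 and 2.27 TPM, then 78.3 and 109.2 TPM), Nlrp9b (0.21 and 0.49 TPM, then 69.5 and 117.0 TPM) and Nlrp9c (1.05 and 0.63 TPM, then 99.3 and 123.7 TPM) started near 0. The log2 changes of these 3 as deposited were 4.76, 6.09 and 5.93. Nlrp9b passed the filter only through the growing libraries, so its direction was fixed by the filter. Nlrp4a changed by 4.38, Nlrp4b by 2.41 and Nlrp4g by 1.16 as deposited. Nlrp4g is annotated as a transcribed pseudogene, so not every tested member is annotated to encode a protein. The Obox genes encode homeodomain proteins stored in the egg. All 4 tested of 7 listed rose, with a median of 6.49 as deposited: Obox5 went from 1.31 and 1.40 to 222.7 and 226.2 TPM, and Obox1 from 1.07 and 1.21 to 283.0 and 207.8 TPM. Obox2 and Obox7 rose by 6.39 and 4.28, and Obox7 passed the filter only through the growing libraries. Some members of both families are near copies of each other. No source used here states how reads that match several copies were shared out, and the level of a single member is uncertain.

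The subcortical maternal complex, a protein assembly under the egg membrane needed for the first cleavages, was split. Khdc3 went from 270.5 and 142.3 to 1644 and 1496 TPM, Tle6 from 308.0 and 362.9 to 758.0 and 677.3 TPM, Zbed3 from 314.2 and 340.4 to 1608 and 1828 TPM, and Nlrp2 from 2.29 and 2.05 to 102.3 and 140.9 TPM. These 4 were called higher in every fit with a library left out. Nlrp5, also known as Mater, was among the highest of the set at both stages, at 2803 and 2759 TPM and then 2503 and 3571 TPM, and its stages overlapped. Ooep was at 623.6 and 617.4 TPM and then at 557.0 and 499.8 TPM, and was not called either. Padi6 and Nlrp4f bring the count of rises to 6 of 8 tested, against 17.1% of all tested genes. Padi6 was at 1357 and 1509 TPM and then at 2434 and 2269 TPM. Its call was lost when any single control library was left out, with a limma adjusted p between 0.0840 and 0.143. Nlrp4f was at 700.6 and 651.4 TPM and then at 804.4 and 1055 TPM. Its call was lost without growing replicate 2 (limma adjusted p = 0.0585) and without non-growing replicate 2 (limma adjusted p = 0.0902).

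Among named protein-coding genes averaging at least 20 TPM in the higher stage, several of the largest rises lay in 1 gene cluster. Fbxw20, Fbxw14 and Fbxw28 headed the list of named protein-coding genes by size of rise, and Fbxw16 and Fbxw19 were also among the first 15. Their products carry an F-box and WD40 repeats, the build of substrate receptors of ubiquitin ligases. Fbxw20 (chromosome 9, 109217432 to 109234754, GRCm38) went from 3.36 and 3.75 to 696.8 and 708.4 TPM, a change of 7.27 (SE 0.21, limma adjusted p = 1.43e-06) and 7.99. After these values were seen, the whole Fbxw cluster of chromosome 9 (109139447 to 109790670) was looked up. Its 15 tested members include the genes that prompted this search, and 15 of 15 were called higher, against 17.1% of all tested genes. Fbxw23, an annotated pseudogene, passed the filter only through the growing libraries. The members were at 0.44 to 197.8 TPM in the non-growing and 47.2 to 4018 TPM in the growing libraries. Summed over the cluster, TPM went from 765.3 and 747.6 to 13035 and 14570. The members are near copies, so their sum is surer than any single level. Other large rises were Serpinc1, the gene for antithrombin (1.48 and 3.17 TPM, then 299.2 and 425.5 TPM), Umodl1 (13.0 and 13.6 TPM, then 824.3 and 897.5 TPM) and Plcb1, a phospholipase C gene (5.46 and 6.05 TPM, then 357.6 and 484.2 TPM). Oog1, an oocyte-specific gene, was at 0.42 and 4.27 TPM before and 155.3 and 192.9 TPM after the start of growth. Clec12a went from 0.78 and 0.93 to 104.8 and 130.4 TPM and passed the filter only through the growing libraries.

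Genes whose products are stored for the egg and embryo moved both ways, where 17.1% of all tested genes rose and 29.4% fell. Among 13 maternal chromatin genes 5 rose and 1 fell, with a median of -0.28 as deposited and 0.52 after trimmed-mean scaling. H1f8, the linker histone of oocytes, went from 743.8 and 824.2 to 4056 and 4517 TPM, a change of 2.45 (SE 0.29, limma adjusted p = 0.000233) and 3.27. Zfp57, which guards imprinted methylation, went from 458.2 and 462.4 to 944.1 and 1050 TPM, and Bnc1 from 2.69 and 2.48 to 7.80 and 8.49 TPM. Dppa3, also called Stella, was one of the most abundant genes of the non-growing libraries, at 21272 and 20226 TPM, and was at 13158 and 12941 TPM in the growing ones without being called. Among 21 genes of mRNA storage and decay, 8 rose and 5 fell. Zar1l (1.15 and 2.52 TPM, then 93.8 and 127.2 TPM), the poly(A)-binding protein genes Pabpn1l (1.77 and 2.56 TPM, then 105.8 and 140.2 TPM) and Pabpc1l (0.22 and 0.38 TPM, then 23.3 and 21.9 TPM) and Patl2 (4.25 and 4.28 TPM, then 100.5 and 87.8 TPM) were near absent before growth. Pabpc1l passed the filter only through the growing libraries, and 2 of the 21 genes passed it through 1 stage only. Btg4, which brings the deadenylase to maternal mRNA, rose by 1.01 as deposited from 321.6 and 345.0 TPM. Cnot7, a catalytic subunit of that deadenylase, fell from 567.7 and 550.9 to 146.6 and 152.5 TPM, a change of -1.90 (SE 0.07, limma adjusted p = 3.70e-06) and -1.08. Cpeb1, which governs the polyadenylation of stored mRNA, was at 305.6 and 334.7 TPM and then 401.6 and 469.6 TPM and was not called.

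Of 11 tested transcription factors that set up the oocyte programme none was called higher and 3 fell, a share near the 29.4% of all tested genes, and the median change was -0.89 as deposited and -0.20 after trimmed-mean scaling. Figla went from 966.1 and 992.2 to 362.1 and 301.7 TPM, a change of -1.56 (SE 0.10, limma adjusted p = 1.83e-05) and -0.75. Sohlh1 went from 334.3 and 358.6 to 65.3 and 35.0 TPM and its partner Sohlh2 from 116.5 and 130.2 to 17.7 and 15.1 TPM, with changes of -2.83 and -2.84 as deposited and -2.02 and -2.04 after trimmed-mean scaling. Both encode helix-loop-helix factors of the primordial follicle stage. Nobox, which encodes a homeodomain factor needed beyond the primordial follicle, was at 459.0 and 495.5 TPM and then 213.4 and 200.9 TPM. Every growing library lay below every non-growing one, as for 68.3% of all tested genes. Nobox changed by only -0.38 after trimmed-mean scaling and was not called. Tbpl2, the oocyte form of the TATA-binding protein, stayed between 182.4 and 215.6 TPM, and Sub1, the most abundant of the list, was at 5786 and 5404 TPM and then 3681 and 3416 TPM; neither was called.

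Many genes of meiotic prophase fell, against 29.4% of all tested genes. Of 14 tested genes of the chromosome axis and synapsis none rose and 8 fell, with 6 or 7 falling when a library was left out, and of 22 recombination genes 12 fell and 1 rose (2 without growing replicate 1). The medians were -1.54 and -1.19 as deposited and -0.82 and -0.67 after trimmed-mean scaling. Beside Sycp3, the central element gene Syce1 went from 466.1 and 467.6 to 38.7 and 34.1 TPM, a change of -3.65 (SE 0.11, limma adjusted p = 1.55e-06) and -2.84. Hormad1, an axis protein gene, went from 20.9 and 20.3 to 2.48 and 3.67 TPM, and the meiotic cohesin gene Smc1b from 381.7 and 371.2 to 112.2 and 70.6 TPM. The set was not uniform. Syce2, a second central element gene, was at 595.7 and 609.6 TPM and then 669.8 and 619.4 TPM and was not called. Tex15 fell from 304.7 and 287.2 to 42.1 and 22.2 TPM and Tex11 from 63.5 and 65.7 to 8.87 and 7.91 TPM, with changes of -3.23 and -2.81 as deposited. Both act in recombination. Mei1 went from 5.49 and 4.89 to 0.48 and 0.23 TPM and passed the filter only through the non-growing libraries. Of the 22 recombination genes 5 passed it through 1 stage only. Msh4, which marks crossover intermediates, went up instead, from 33.7 and 35.1 to 162.3 and 188.7 TPM, a change of 2.31 (SE 0.10, limma adjusted p = 5.36e-06) and 3.12. Hsf2bp (223.7 and 218.6 TPM, then 127.6 and 109.6 TPM) was not called. Of the genes that take germ cells into meiosis, 4 were tested and 3 fell, among them Rbm46, from 34.0 and 32.3 to 4.72 and 2.46 TPM; the count was as low as 1 with a library left out, without non-growing replicate 2.

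Genes of meiotic arrest and maturation, which act weeks later in the full-grown oocyte, gave 7 rises and 3 falls among 28 tested, with 5 falls without either of the growing cKO libraries. Among all tested genes 17.1% rose and 29.4% fell, so falls were fewer in this list. Mos, the kinase of metaphase arrest, went from 49.2 and 50.9 to 211.6 and 203.2 TPM, a change of 2.03 (SE 0.13, limma adjusted p = 1.54e-05) and 2.84. Wee2, the oocyte kinase that holds CDK1 inactive, went from 58.1 and 60.6 to 147.6 and 165.7 TPM. Mastl went from 33.5 and 33.5 to 63.9 and 76.3 TPM and Camk2g from 20.6 and 20.3 to 39.5 and 45.2 TPM. Cdk1 itself fell from 449.5 and 459.1 to 179.3 and 153.5 TPM, a change of -1.45 as deposited and -0.63 after trimmed-mean scaling. Arpp19, the substrate of MASTL, was at 711.4 and 698.2 TPM and then 357.1 and 325.2 TPM, and Mad2l1 at 328.6 and 318.0 TPM and then 251.9 and 305.7 TPM, and neither was called.

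The KIT, PI3K and FOXO pathway wakes the primordial oocyte in mice. Of 23 tested members 2 rose and 3 fell (6 without either growing cKO library, 5 without cKO non-growing replicate 1), with a median near that of all genes, -0.77 as deposited and -0.04 after trimmed-mean scaling. Both counts were below the 17.1% and 29.4% of all tested genes. Kit was at 101.0 and 111.0 TPM and then 44.3 and 39.2 TPM and was not called. Tsc2, which restrains mTORC1 downstream of PI3K, stood apart in the list: it went from 140.6 and 133.4 to 2139 and 2141 TPM, a change of 3.96 (SE 0.10, limma adjusted p = 1.09e-06) and 4.77. Foxo1 went from 3.73 and 3.95 to 7.80 and 7.59 TPM. Eif4ebp1, the translational repressor that mTORC1 inactivates, fell from 236.9 and 251.2 to 50 and 38.8 TPM, and Rps6, whose product is phosphorylated in the same pathway, fell from 848.6 and 897.8 to 313.2 and 291.1 TPM. Rheb, the target of the TSC complex, was at 311.2 and 300.4 TPM and then 165.0 and 171.4 TPM and was not called.

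The DNA methylation machinery gave 6 rises and 5 falls among 20 tested genes, and the falls numbered 1 without non-growing replicate 2, 3 without non-growing replicate 1 and 2 without growing replicate 2. The share of all tested genes was 17.1% for rises and 29.4% for falls. Oocytes gain their methylation during growth. Dnmt3l, the cofactor of de novo methylation, was at 0.09 and 0.08 TPM before growth and at 20.7 and 24.4 TPM after its start, so it passed the filter only through the growing libraries. Dnmt3a, its catalytic partner, went from 24.2 and 25.9 to 52.5 and 57.6 TPM, a change of 1.10 (SE 0.13, limma adjusted p = 0.000224) and 1.90. Tet3, an oxidase of methylcytosine, went from 1.61 and 1.32 to 12.03 and 14.79 TPM. The filter was passed through 1 stage only by 2 of the 20 genes. Kdm1b, the H3K4 demethylase needed for imprints, was at 272.8 and 287.0 TPM and then 281.1 and 262.8 TPM, and the remodeller gene Hells at 174.5 and 158.8 TPM and then 82.6 and 101.5 TPM. Neither was called.

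Polycomb genes gave calls in both directions, in shares not far from the 17.1% higher and 29.4% lower of all tested genes. Of 12 tested PRC2 genes 3 rose and 2 fell, or 1 fell without non-growing replicate 2. Ezh2, the methyltransferase subunit, went from 78.3 and 71.5 to 148.9 and 155.8 TPM, a change of 1.02 (SE 0.13, limma adjusted p = 0.000308) and 1.83, and the histone chaperone Rbbp7 from 567.7 and 551.2 to 1247 and 1522 TPM. Its relative Rbbp4 fell from 204.8 and 187.5 to 67.4 and 64.3 TPM, a change of -1.56 (SE 0.13, limma adjusted p = 5.14e-05) and -0.75. Of 32 tested PRC1 genes, which act in ubiquitination of H2A, 7 rose and 6 fell, with 3 to 6 falls when a library was left out and 3 without non-growing replicate 2. Pcgf1, which defines a variant form of PRC1, went from 59.9 and 62.2 to 538.0 and 610.5 TPM, a change of 3.21 (SE 0.10, limma adjusted p = 1.68e-06) and 4.02. Bmi1, of canonical PRC1, went from 16.6 and 16.4 to 31.1 and 38.6 TPM, Rybp from 14.2 and 13.8 to 41.6 and 32.0 TPM and Sfmbt1 from 13.0 and 11.8 to 41.3 and 42.9 TPM. Among 23 enzymes of H3K4 and H3K36 methylation 2 rose and 7 fell, with 4 falls without either non-growing library and 1 rise without non-growing replicate 2 or growing replicate 2. Kdm5b, an H3K4 demethylase, fell from 29.5 and 30.8 to 3.26 and 1.79 TPM. Of 14 genes of H3K9 methylation 1 rose and 3 fell, with 1 fall without growing replicate 2 or either non-growing library and 5 without either growing cKO library. The methyltransferase gene Suv39h1 fell from 14.3 and 16.6 to 1.72 and 1.65 TPM, and its paralogue Suv39h2 rose from 10.4 and 7.81 to 15.95 and 16.01 TPM. Kdm4d, also called lower, was at 1.84 and 1.49 TPM and then 0.28 and 0.46 TPM. It passed the filter through the non-growing libraries alone, so its direction was fixed by the filter. The filter was also passed through 1 stage only by 1 of the PRC1 genes and 2 of the H3K4 and H3K36 enzymes.

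Kdm5d is annotated on the Y chromosome, which ovaries lack, yet it was listed at 21.7 and 22.1 TPM and then at 120.6 and 115.9 TPM and was called higher. Of the 4 Y-linked models tested, 3 were called higher and none lower, against 17.1% and 29.4% of all tested genes. Its X-linked relatives share sequence with it, and which locus gave these reads was not tested.

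Germline genes of other kinds moved both ways, where 17.1% of all tested genes rose and 29.4% fell. Of 22 piRNA pathway genes 9 fell and 2 rose, with 3 falls without non-growing replicate 2, 4 without any of the other 3 control libraries, and 1 rise without growing replicate 1 or non-growing replicate 2. Mael, a piRNA factor of male and female germ cells, went from 574.5 and 599.8 to 88.5 and 90.3 TPM, a change of -2.70 (SE 0.09, limma adjusted p = 1.87e-06) and -1.89. Mov10l1, the piRNA helicase, went from 83.0 and 87.9 to 14.2 and 9.68 TPM, while Tdrd12 went up from 13.6 and 14.0 to 56.0 and 90.5 TPM. The filter was passed through 1 stage only by 1 of the 22 piRNA pathway genes. Of 16 pluripotency and germ cell genes 7 rose and 3 fell. Dppa5a went from 2517 and 2375 to 6543 and 7041 TPM, Sall4 from 18.4 and 16.3 to 104.9 and 122.6 TPM and Dppa2 from 3.24 and 3.68 to 42.3 and 46.8 TPM. Esrrb (0.37 and 0.08 TPM, then 15.7 and 30.2 TPM) and Nanos2 (0.87 and 0.96 TPM, then 12.9 and 14.3 TPM), a gene best known from male germ cells, passed the filter only through the growing libraries. With them, 3 of the 16 genes passed it through 1 stage only. Pou5f1 was at 79.4 and 90.0 TPM and then 93.2 and 68.8 TPM, with overlapping stages.

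Imprinted genes were counted in 2 lists, set against the 17.1% of all tested genes that rose and the 29.4% that fell. Of 13 tested genes with H3K27me3-dependent imprinting 9 fell and 1 rose. Slc38a1 went from 46.3 and 52.3 to 6.35 and 5.08 TPM, Bbx from 263.2 and 269.7 to 45.4 and 32.9 TPM, Rbms1 from 34.4 and 37.8 to 5.05 and 5 TPM and Sh3gl3 from 68.4 and 63.4 to 11.2 and 10.6 TPM. For 7 of the 13 the filter was passed through 1 stage only. Among 14 genes imprinted by DNA methylation 5 rose and 7 fell. Mest went from 1.58 and 1.33 to 81.2 and 96.4 TPM, a change of 5.19 (SE 0.25, limma adjusted p = 6.94e-06) and 5.82, and Plagl1 from 0.49 and 0.47 to 5.13 and 7.71 TPM. Plagl1 passed the filter only through the growing libraries, and 4 of the 14 passed it through 1 stage only. Snrpn fell from 150.4 and 160.3 to 39.4 and 41.1 TPM and Dlk1 from 9.93 and 14.2 to 1.02 and 0.57 TPM.

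The machinery of protein synthesis and respiration took a smaller share. For comparison, 17.1% of all tested genes rose and 29.4% fell. Of 83 cytosolic ribosomal protein genes 61 fell and none rose, with 46 to 65 falls when a library was left out. In 81 of the 83 every growing library lay below every non-growing one in TPM, which was so for 68.3% of all tested genes. The median change was -1.68 as deposited and -0.86 after trimmed-mean scaling, below that of all genes on both scales. Rps27 went from 2992 and 2850 to 411.7 and 314.9 TPM, a change of -3.02 (SE 0.18, limma adjusted p = 1.19e-05) and -2.20. Rpl4 went from 1459 and 1523 to 322.4 and 287.5 TPM and Rpl13a from 1011 and 976.0 to 218.9 and 201.5 TPM. Of 78 nuclear genes of oxidative phosphorylation 37 fell and none rose. Uqcrc1, of complex III, went from 689.5 and 736.4 to 220.4 and 212.0 TPM. The count was 18 without growing replicate 2, 20 and 22 without non-growing replicate 1 and 2, and at most 48. Of 13 protein genes of the mitochondrial genome 6 fell and none rose. The falls numbered 2 without non-growing replicate 1, 3 without non-growing replicate 2 or growing replicate 2, and 11 without either growing cKO library. Their median change was -1.31 as deposited and -0.50 after trimmed-mean scaling. The filter was passed through 1 stage only by 1 of the 13. mt-Cytb, at 5296 and 5182 TPM and then 2165 and 2070 TPM, was not called. The mitochondrial genome as a whole took 1.92% and 1.87% of TPM before and 0.801% and 0.802% after the start of growth. Of 32 proteasome genes 10 fell, a share near the 29.4% of all tested genes, and none rose. The largest fall was that of Psma8, the meiotic subunit gene, from 21.7 and 21.3 to 2.43 and 1.88 TPM.

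Genes of glycolysis and pyruvate use gave 10 falls and 2 rises among 25, with 4 falls without non-growing replicate 2 and 5 without non-growing replicate 1 or growing replicate 2. The 2 rises were both lactate dehydrogenases, and 17.1% of all tested genes rose and 29.4% fell. Oocytes live on pyruvate, and Ldhb, which links lactate with pyruvate, went from 5201 and 5202 to 14037 and 15320 TPM. The change was 1.5 (SE 0.08, limma adjusted p = 1.05e-05) and 2.31, but -0.29 after quantile normalization. Ldhc, the form known from testis, went from 0.78 and 1.09 to 17.96 and 20.78 TPM. Hk1, the first enzyme of glycolysis, fell from 6.23 and 7.56 to 0.13 and 0.01 TPM. Hk1 passed the filter only through the non-growing libraries, and 3 of the 25 genes passed it through 1 stage only. Pgk1 fell from 152.2 and 143.3 to 42.5 and 38.4 TPM.

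Among cell cycle inhibitors 5 of 10 fell and none rose, or 2 without non-growing replicate 2 and 3 without non-growing replicate 1. Cdkn1a, which encodes p21, went from 79.2 and 77.4 to 9.50 and 5.01 TPM, a change of -3.32 (SE 0.27, limma adjusted p = 4.49e-05) and -2.55. The filter was passed through 1 stage only by 2 of the 10. Among them was Rbl2, called lower, at 2.44 and 2.47 TPM and then 0.64 and 0.63 TPM, so its direction was fixed by the filter. Over all tested genes 29.4% fell and 17.1% rose, and of 15 genes of apoptosis and the oocyte checkpoint 7 fell and 2 rose. The filter was passed through 1 stage only by 1 of these 15. Trp63, the p53 relative that culls damaged resting oocytes, went from 64.3 and 68.4 to 18.4 and 18.3 TPM, and Bax from 242.4 and 256.4 to 50.1 and 45.3 TPM. Chek1 went up from 74.6 and 74.1 to 179.3 and 212.8 TPM and Bcl2l10, an anti-apoptotic gene of oocytes, from 76.4 and 85.7 to 1034 and 1190 TPM, a change of 3.76 (SE 0.14, limma adjusted p = 3.20e-06) and 4.57. Immediate early and heat shock genes, often used as a sign of handling, gave 3 rises and 4 falls among 10, with 2 falls without growing replicate 2 or non-growing replicate 1. For 4 of the 10 the filter was passed through 1 stage only. Fos went from 23.7 and 24.2 to 3.04 and 1.04 TPM and Dusp1 from 2.50 and 2.96 to 15.1 and 14.7 TPM. Their part in other results was not tested.

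**Figure D3:**
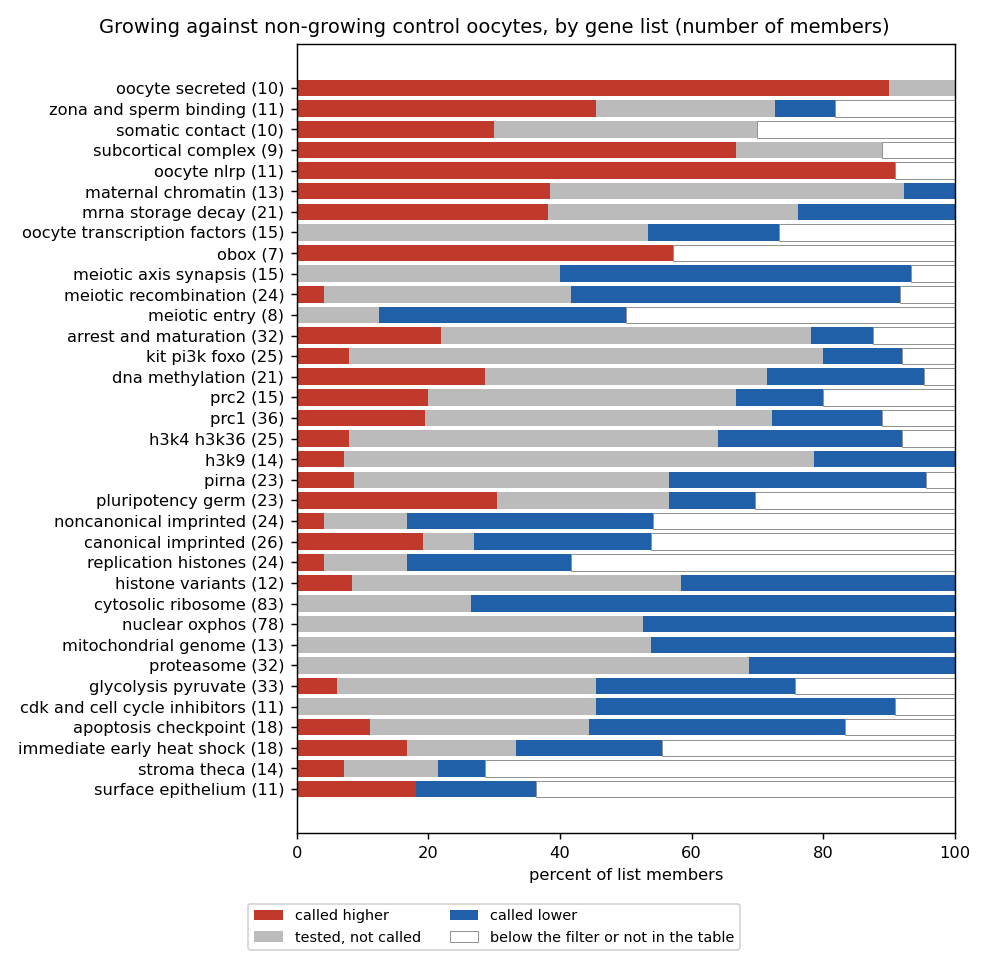
Share of each gene list, in percent of its members, that was called higher (red), tested and not called (grey), called lower (blue), or below the filter or not in the table (white), with the number of members in brackets. The oocyte-secreted and NLRP lists are almost wholly red and the meiotic, ribosomal, respiratory and proteasome lists hold no or almost no red.

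The largest falls included histone genes. Hist1h2ap went from 1041 and 1140 to 42.5 and 12.8 TPM and Hist1h2ao from 206.1 and 130.8 to 0.04 and 1.10 TPM, with changes of -5.48 and -6.80 as deposited. The clustered histone genes are near copies, so single levels are uncertain. Of 10 tested replication histones in the list 6 fell and 1 rose, a rise that was lost without either growing control library or either non-growing cKO library; the rises numbered 2 without either growing cKO library. Of 12 histone variants 5 fell and 1, H1f8, rose, with 3 falls without growing replicate 2 or either non-growing library. These counts stand against 17.1% of all tested genes that rose and 29.4% that fell. Of the 10 replication histones 3, and of the 12 histone variants 1, passed the filter through 1 stage only. Macroh2a1 fell from 127.0 and 125.3 to 28.7 and 25.1 TPM and H2az2 from 162.8 and 159.5 to 43.4 and 38.2 TPM. H2az1 lay between 324.6 and 331.6 TPM in all 4 libraries and was not called. Other genes of the 15 largest falls were Nupr1, a stress response gene (114.0 and 120.8 TPM, then 1.60 and 0.53 TPM), Selenop, a selenium carrier (190.6 and 183.6 TPM, then 11.8 and 5.71 TPM) and Crabp1, a retinoic acid binding protein (140.7 and 146.5 TPM, then 8.64 and 5.24 TPM). The X-linked Mageb4 went from 168.0 and 162.9 to 10.6 and 6.53 TPM. Chromosome X as a whole held more falls than any autosome: 41.3% of its 484 tested genes fell against 25.4% to 31.7% over the 19 autosomes, while 14.5% rose against 11.8% to 22.8%.

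Markers of the other cells of the ovary were low. For granulosa cells 3 of 16 markers passed the filter and their summed level was 6.93 and 6.99 TPM before and 10.5 and 11.4 TPM after the start of growth, with Amh and Foxl2 at or below 0.03 TPM in all 4 libraries. Nr5a2 went from 0.48 and 0.39 to 4.95 and 5.06 TPM and passed the filter only through the growing libraries. Immune markers summed to 4.32 and 2.81 TPM and then 14.4 and 13.8 TPM, of which C1qb gave 1.06 and 1.03 TPM and then 10.7 and 11.1 TPM, with Ptprc at 0 to 0.04 TPM. Endothelial markers summed to 27.7 and 23.3 TPM and then 150.4 and 158.1 TPM. Vwf made up most of each sum (19.2 and 15.6 TPM, then 145.1 and 149.6 TPM) and was called higher. Pecam1 was at 7.65 and 6.73 TPM and then 4.15 and 6.74 TPM and was not called, Emcn was listed at 0 in all 4 and Cdh5 at 0 to 0.04 TPM. Stroma and theca markers summed to between 5.04 and 6.15 TPM, surface epithelium markers to between 7.99 and 10.4 TPM and erythroid markers to between 0.40 and 1.31 TPM. Of the tested markers 1 of 3 rose and 1 fell for granulosa cells, and 1 of 4 rose and 1 fell for stroma and theca. For endothelium 1 of 2 rose, for immune cells 2 of 2, and for surface epithelium 2 of 4 rose and 2 fell. The filter was passed through 1 stage only by 2 of these granulosa, 2 stroma and theca, 1 immune and 3 surface epithelium markers. The direction of those markers was fixed by the filter, so these counts say little about growth. The granulosa fall was lost without any single control library, and the stroma fall without growing replicate 2 or non-growing replicate 1. For surface epithelium 1 fall was counted without any single control library, and 1 rise without growing replicate 1 or non-growing replicate 1. Over all tested genes 17.1% rose and 29.4% fell, and the part of these markers in other results was not tested. Fewer cells of a type and less RNA per cell cannot be told apart from these values.

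What the fixed sum of TPM was shared among changed with growth. Protein-coding genes took 87.7% and 88.2% of TPM in non-growing and 61.6% and 62.3% in growing oocytes. Models of the class TEC, unspliced transcripts whose status GENCODE leaves to later evidence, went from 2.58% and 2.48% to 24.2% and 23.9%, and lincRNAs from 1.90% and 1.85% to 6.43% and 6.15%. The number of models that held 50% of all TPM went from 464 and 477 to 105 and 105. Among nuclear protein-coding genes alone it went from 470 and 479 to 334 and 322. The 10 highest models in growing oocytes were 9 TEC models and 1 lincRNA, at 915.0 to 2474 TPM before and 14722 to 30532 TPM after the start of growth. All 10 were called higher, against 17.1% of all tested genes, but their choice by level in growing oocytes favours such a call. Gm44792 (chromosome 7, 65479594 to 65481221) led them, at 2219 and 2134 TPM and then 30108 and 30532 TPM. Of the 149 TEC models tested 43.6% rose, and of the 615 lincRNAs 40.8%, against 14.4% of the 11076 protein-coding genes. These shares were not tested; with 2 libraries against 2 an exact permutation test of a single share cannot go below p = 0.333.

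**Figure D4:**
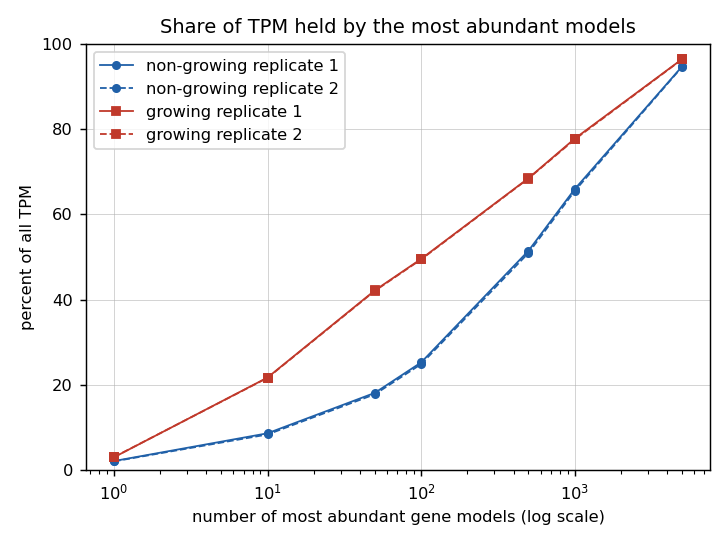
Percent of all TPM held by the most abundant gene models, with their number on a log scale, in the 2 non-growing (blue) and 2 growing (red) control libraries. The 10 most abundant models held 8.64% and 8.36% of TPM in non-growing and 21.7% and 21.7% in growing oocytes, and the 100 most abundant 25.3% and 24.9% against 49.5% and 49.4%.

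The growth change was then compared with that of oocytes without Eed, which share no library with the controls. Eed was between 9.64 and 12.1 TPM in the 4 cKO libraries. In the cKO 2675 genes rose (20.2% of 13218) and 4042 fell (30.6%). Of the 2257 rises in control 2028 were called higher there too, 89.9% of the control and 75.8% of the cKO calls. Of the 3885 falls in control 3039 were called lower there too, 78.2% of the control and 75.2% of the cKO calls. Bmp15 changed by 5.19 in the cKO as deposited (4.76 in control), Oosp1 by 6.30 (5.24), Npm2 by 2.97 (3.04), Sycp3 by -2.82 (-3.26), Fbxw20 by 7.92 (7.27) and Figla by -1.52 (-1.56). For these 6 genes the difference between genotypes did not pass the test, with limma adjusted p between 0.270 and 0.883 as deposited. Over all genes the difference passed for 4, or 0.0303%, by limma, and 2179 genes had an unadjusted p under 0.05 as deposited and 2201 after trimmed-mean scaling. The count of 4 rested on 1 library, since it was 700 without cKO growing replicate 1. It was also 11 and 7 without control non-growing replicates 1 and 2, 2 without cKO non-growing replicate 1, 9 without cKO growing replicate 2, and between 4 and 6 without each of the others.

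**Figure D5:**
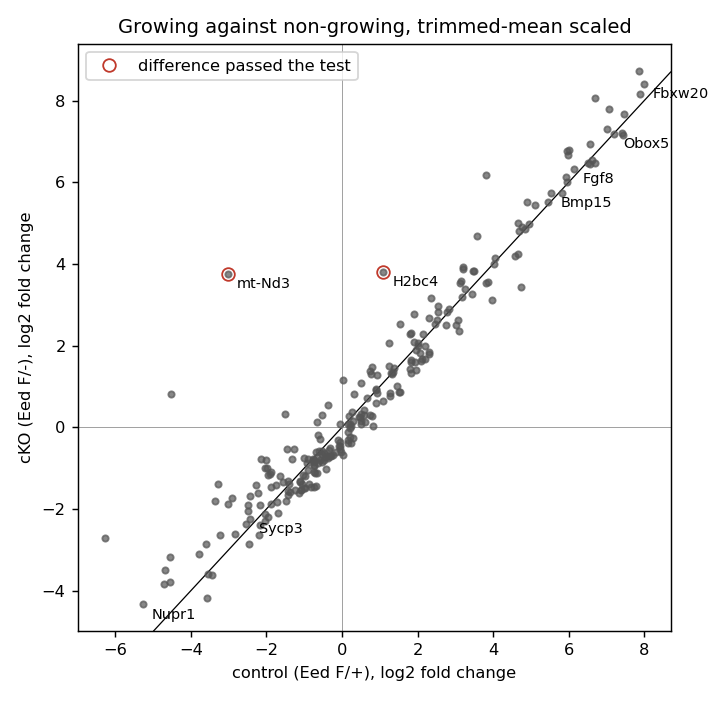
Log2 fold change of growing against non-growing oocytes after trimmed-mean scaling in the cKO (Eed F/-, vertical) against the control (Eed F/+, horizontal) for the named genes other than predicted Gm models, with the line of equal change. Most points lie near the line, and the ringed points H2bc4 and mt-Nd3 are named genes for which the difference between genotypes passed the limma test.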

How the data were processed

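RNA-seq was deposited for 12 libraries of mouse oocytes in 6 groups of 2, and the 4 PRC2 control libraries are described here. The labels' protocols name the RNeasy Plus Micro kit for RNA, the NEBNext Single Cell/Low Input kit for cDNA libraries, and 150-base paired reads from a HiSeq 4000. The values are the TPM deposited by the authors. Trim Galore 0.6.10, HISAT2, SAMtools, Subread 2.0.3, RSEM 1.3.3 and GRCm38/mm10 appear per the submitters' processing notes. No source used here says which tool gave the TPM or how strand and multiply matching reads were treated. TPM keeps no depth, so no count test was run.

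Models at 1 TPM or more in at least 2 of the 4 control libraries were tested. Values were log2(TPM + 1), fitted over the 8 PRC2 libraries in 4 groups with limma 3.58.1 (eBayes with trend, two-sided, Benjamini-Hochberg over all 13218) in R 4.3.3. The fit was repeated after trimmed-mean scaling, which removed 30% of the ratios and 5% of the levels at each end. In simulations of this comparison on 13218 genes with 4000 changed, recovery was 48.3% at 2-fold and 93% at 4-fold. With 200 changed it was 47% and 77%. Changed genes were drawn only from those well above the filter in non-growing oocytes, and rises and falls were pooled. Recovery of each direction, and of genes low before growth, is thus not known.

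The genes, the 39 gene lists and the rule for named genes were chosen with earlier results of these data known. The rule took the marker genes, the 15 largest called rises and falls after trimmed-mean scaling among named protein-coding genes whose stages did not overlap (higher stage averaging 20 TPM or more), up to 4 called members of smallest p and 4 most abundant members of each list, the 10 highest models per stage, and up to 4 genes per direction whose change differed between genotypes. Lists of at most 10 members were given whole. Gene classes came from GENCODE vM21, whose coordinates were identical for 54851 of 55385 models, and promoters from RefSeq on GRCm38.p6. Alternatives were the pseudocount (0.1 and 5), the filter, the scaling, eBayes settings, a replicate block, a 2-fold minimum, the control libraries alone and each library left out. The PRC1 libraries were not used here. A few genes named by the rule are not reported here.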

Additional observations from a re-analysis of the deposited data

Results flagged for a closer look

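For 4 models the growth change differed between control and cKO in a test of the difference itself (limma, adjusted p at most 0.05 on both scales, control minus cKO as deposited). H2bc4, a replication histone gene, gave a difference of -2.99 (adjusted p = 0.00986). It was at 42.6 and 43.8 TPM and then 59.3 and 47.2 TPM in control, and at 4.15 and 5.13 TPM and then 51.4 and 55.7 TPM in the cKO, so the non-growing cKO libraries were the low ones. mt-Nd3 gave -6.88 (adjusted p = 0.0118). It was at 6.93 and 13.0 TPM in non-growing control oocytes and at 6.93 and 14.7 TPM in growing cKO oocytes, and was listed at 0 in the other 4 libraries. Gm25872, annotated as a miRNA locus, gave -5.17 (adjusted p = 0.00119), being listed at 0 in both non-growing cKO libraries. Gm37787, an antisense model, gave -3.80 (adjusted p = 0.00119), being listed at 12.3 and 13.7 TPM in non-growing control oocytes and at 0 elsewhere. mt-Nd3 and Gm37787 passed the filter, which used the control libraries alone, only through the non-growing stage, so their fall in control, and with it part of the difference, was fixed by the filter. In a table without counts a listed 0 can be a failed estimate, and for the 3 models with such zeros the size of the difference depends on the 1 TPM added before the log.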

How the results depend on the processing

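Of the 267 named genes 208 were called, and 178 of these kept the call in every fit that left out 1 of the 8 libraries. Leaving out 1 library gave 1913 to 2404 rises, 2643 to 4249 falls, 721 to 819 rises and 256 to 332 falls of at least 4-fold, and 2 to 700 genes that differed between genotypes. With trimmed-mean scaling alone the rises numbered 4023, or 1187 at 4-fold, and on the deposited values alone the falls numbered 7549, or 954 at 4-fold. Quantile normalization gave 3426 rises and 419 falls of 4-fold, scaling to nuclear protein-coding genes 542 falls of 4-fold, and a test against a 2-fold minimum 1005 rises and 513 falls. The 4-fold counts followed the pseudocount, with 1220 rises and 774 falls at 0.1 and 390 and 78 at 5. Genes that differed between genotypes numbered 2 with no filter, 11 with the filter over 8 libraries and 9 on the deposited values. Fitted on the 4 control libraries alone, 2464 genes rose and 4495 fell. Restricting the models that held 50% of TPM to nuclear protein-coding genes moved 105 and 105 to 334 and 322 in growing oocytes.

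Some named genes without a call under the joint rule had the opposite sign to their deposited change under another scaling. With trimmed-mean scaling these were Dazl (0.66), Hspa8 (0.73), Ddx4 (0.48), Myo10 (0.49), Pou5f1 (0.73), Gnas (0.45), Igf2bp3 (0.51), Mad2l1 (0.60), Ooep (0.58), H2az1 (0.81), Kdm1b (0.77), Gja4 (0.81), H3f3a (0.50) and Tbpl2 (0.59). With quantile normalization they were Dazl (0.49), Nlrp5 (-0.84), Ddx4 (0.32), Mad2l1 (0.40), Ooep (0.27), H2az1 (0.61), H3f3a (0.34) and Tbpl2 (0.46), and Ldhb, called as a rise, reversed to -0.29. With nuclear protein-coding scaling they were Dazl (0.34), Ooep (0.26), H2az1 (0.49) and Tbpl2 (0.27). No direction is given for these genes other than Ldhb. The cause was not tested.

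The replicate numbers were not shown to pair libraries: same-numbered control libraries of the 2 stages correlated at 0.04 in their deviations and cKO libraries at 0.29. With the replicate number as a block 2306 genes rose and 3970 fell, 779 and 285 of at least 4-fold, and 4 differed between genotypes. TPM gives no depth, so the precision of low values is unknown.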
